A study of Homo sapiens with 8 samples.

Results

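The genes described here encode 9 enzymes that make serine and pass its carbon to folate: PHGDH, PSAT1, PSPH, SHMT1, SHMT2, MTHFD1, MTHFD1L, MTHFD2 and TYMS. They were chosen by symbol. All 9 were among the 13453 genes of the deposited table, and all 9 passed the filter on a mean FPKM of 1 or more that 11427 genes passed, and were tested. RNA was sequenced from Jurkat cells, an established human T-cell acute lymphoblastic leukemia (T-ALL) line, in 8 libraries of 4 conditions with 2 libraries each. The study asked which genes follow the level of CBAP, the protein encoded by TMEM102. The sh-Ctrl cells carried a lentiviral non-target shRNA, and the CBAP knockdown cells a lentiviral shRNA against CBAP. These conditions are called the shRNA set here. The CBAP knockout cells came from CRISPR/Cas9 editing with single-cell cloning and expressed GFP, and the CBAP-reconstituted cells were knockout cells that expressed a CBAP-GFP fusion. These are called the CRISPR set. Both conditions of the CRISPR set therefore carried the edited gene and the cloning history, and both conditions of the shRNA set a lentiviral vector under puromycin selection. The sh-Ctrl and CBAP-reconstituted libraries are the CBAP-expressing class, and the CBAP knockdown and CBAP knockout libraries the CBAP-deficient class. Each library carries a code of its own in the labels, which no source used here explains, so the 2 libraries of a condition may be separate clones, separate cultures or technical repeats. The p-values measure only the spread between these libraries, which may be technical.

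Cells make serine from a glycolytic intermediate in the steps catalysed by PHGDH, PSAT1 and PSPH. The SHMT enzymes then split serine into glycine and a carbon unit that is carried on tetrahydrofolate, SHMT1 in the cytosol and SHMT2 in mitochondria. In mitochondria MTHFD2 and MTHFD1L oxidise that unit to formate, which MTHFD1 recovers in the cytosol for purine synthesis and for TYMS, the enzyme that methylates deoxyuridylate to thymidylate. Proliferating T cells and T-cell leukemias are known to rely on this route for nucleotides.

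The values are FPKM, which the authors scaled for the length of the exons and for the fragments mapped, so levels can be compared between genes. They keep no depth, and no counting interval can be given. Sums over the table ran from 362082 to 434742 per library. TMEM102 had FPKM values of 4.07 and 4.74 in sh-Ctrl and of 2.69 and 2.89 in CBAP knockdown libraries. All 4 CRISPR-set libraries list it at 0, the reconstituted ones included, which leaves no check of those labels by this gene. All 11 T-cell markers examined were above 0 in every library, with a summed FPKM of 1593 to 2580. Of the markers of other blood cells, CD79A of B cells had an FPKM of 0.732 to 22.5, CD68 of myeloid cells 0.935 to 2.41 and HBA1 of erythroid cells 0 to 4.25. Each library lists 606 to 1256 genes at 0, among them none of the 9 enzymes.

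TYMS had the highest level of the 9 enzymes, with a mean FPKM of 295 over the 8 libraries, and PSPH the lowest, with 16.4. PSAT1 followed TYMS with 186, then PHGDH with 154, MTHFD2 with 133, SHMT2 with 93.3, MTHFD1 with 51.2, MTHFD1L with 29.2 and SHMT1 with 28.5. The mitochondrial SHMT2 was thus above its cytosolic counterpart SHMT1 in level. MTHFD2 varied most among the 8 libraries, by 2.99-fold between the lowest and the highest FPKM. PSAT1 varied by 2.03-fold and SHMT1 by 1.91-fold. PHGDH varied least, by 1.25-fold, followed by MTHFD1L with 1.33-fold and TYMS with 1.35-fold.

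**Figure D1:**
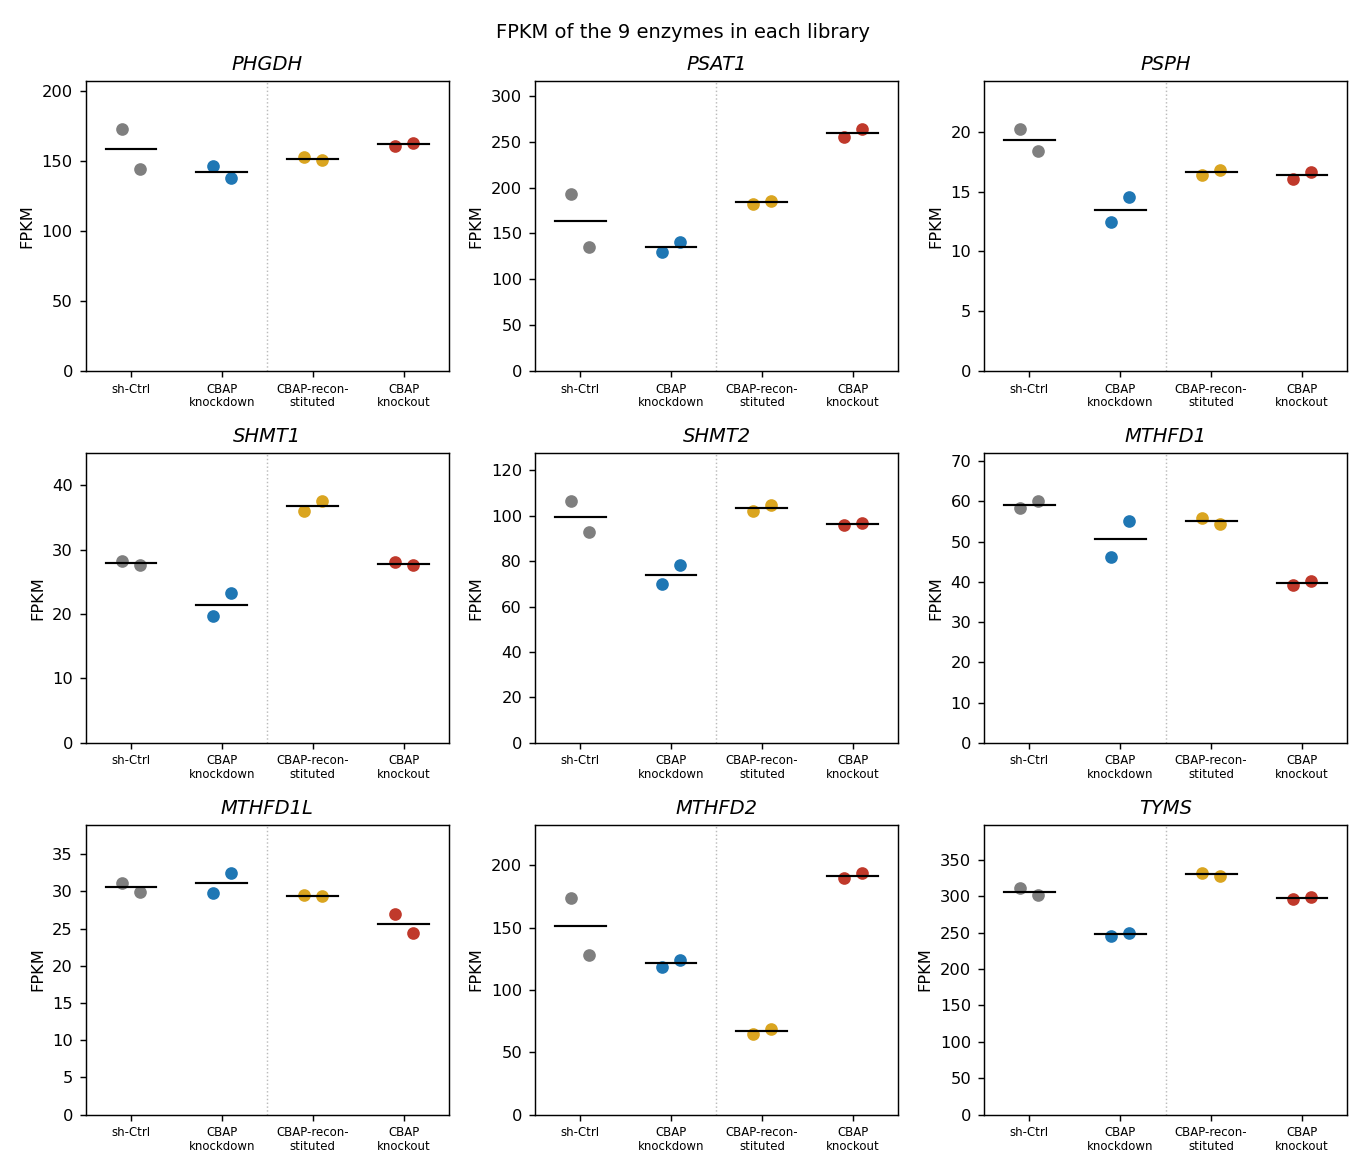
FPKM (vertical axis, linear and starting at 0) of each enzyme in the 4 conditions (horizontal axis), with 1 point per library and a line at the mean of the 2 libraries. MTHFD2 lies lowest in the CBAP-reconstituted libraries, at 64.9 and 68.6, and TYMS lies lower in each CBAP-deficient library than in every CBAP-expressing library in the deposited values, with a log2 change in the CRISPR set that turns to 0.10 after quantile normalization.

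Promoter sequences, the 250 bases before an annotated start, were read from RefSeq (GRCh38.p14) for 7 of the 9 enzymes, with 10 start sites in all. PSPH and SHMT2 were not matched. The windows were searched on both strands for TGATGNAA, a short form of the element bound by ATF4, for the E-box CACGTG, which MYC binds, and for TTTCCCGC and TTTGGCGC, forms of the E2F element. None of these motifs overlaps another in the windows searched. The promoters of MTHFD2 and PSAT1 are shown because these were the enzymes higher in CBAP knockout than in CBAP-reconstituted cells. The first lies at chr2:74198365-74198614 and the second at chr9:78296875-78297124, both on the plus strand, and neither window holds any of the 4 motifs. They are in lower case throughout.
MTHFD2: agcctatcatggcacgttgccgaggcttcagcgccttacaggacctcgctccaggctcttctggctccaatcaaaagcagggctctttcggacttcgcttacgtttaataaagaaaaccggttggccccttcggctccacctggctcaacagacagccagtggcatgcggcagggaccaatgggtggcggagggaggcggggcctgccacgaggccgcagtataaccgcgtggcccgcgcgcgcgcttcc
PSAT1: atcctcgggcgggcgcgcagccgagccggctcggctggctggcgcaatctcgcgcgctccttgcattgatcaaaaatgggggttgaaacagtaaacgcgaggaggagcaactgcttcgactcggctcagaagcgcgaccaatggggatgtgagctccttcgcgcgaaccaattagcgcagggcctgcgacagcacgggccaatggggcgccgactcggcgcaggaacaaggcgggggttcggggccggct
Matches were found in 3 of the 7 enzymes, and the bases around them are shown with the match in capitals. The MTHFD1 window lies at chr14:64388318-64388352 on the plus strand, with an E-box 10 to 15 bases before the start.
MTHFD1: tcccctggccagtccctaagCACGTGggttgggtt
The MTHFD1L window lies at chr6:150866337-150866384 on the plus strand, with TGATGCAA 83 to 90 bases before the second of its 4 start sites and 122 to 129 bases before the third. An E-box lies upstream of it, 110 to 115 bases before the second start and 149 to 154 before the third, in a window at chr6:150866312-150866357 that overlaps the first and is shown after it.
MTHFD1L: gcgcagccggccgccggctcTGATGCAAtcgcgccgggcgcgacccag
MTHFD1L E-box: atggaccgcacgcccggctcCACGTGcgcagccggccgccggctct
The TYMS window lies at chr18:657594-657641 on the plus strand, with the reverse complement of TTTCCCGC 32 to 39 bases before the start.
TYMS: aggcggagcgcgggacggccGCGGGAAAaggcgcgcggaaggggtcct
Of 35116 RefSeq promoter windows of the same length, 3.14% hold TGATGNAA, 6.34% hold CACGTG, 1.39% hold TTTCCCGC and 0.55% hold TTTGGCGC. A match is a description of the sequence and not a site shown to be bound.

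Within the shRNA set, 4 of the 9 enzymes fell and none rose, where 12.3% of all tested genes were called, 8.7% lower and 3.62% higher (limma on log2(FPKM + 1), adjusted p under 0.05). The 4 were PSPH of serine synthesis, SHMT1 and SHMT2, which transfer the carbon of serine to folate, and TYMS, which uses it. Over all 9 the median log2 change was -0.29, against -0.06 over all tested genes. With quantile normalization the same comparison called 3 members lower, while the split of all called genes went from 414 higher and 994 lower to 845 higher and 830 lower. These calls rested on a spread shared with the CRISPR set, whose replicates lay closer together. When the 4 shRNA-set libraries were fitted alone, 0 members and 86 genes in the table were called. Without either CBAP-reconstituted library 0 members were called, and 1 member, TYMS, was called without sh-Ctrl replicate 1 or without either CBAP knockout library.

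Within the CRISPR set, 5 of the 9 enzymes were called where 49.9% of all tested genes were. MTHFD2 and PSAT1 rose, and MTHFD1, SHMT1 and TYMS fell (TYMS turning to 0.10 after quantile normalization), against 23.9% of genes called higher and 25.9% called lower. The share of members called was thus near that of the whole table. The median log2 change was -0.10 for the members and 0.00 for all tested genes. The split depended on scaling, with 3 members higher, PHGDH among them, and 2 lower after quantile normalization and 1 higher and 4 lower after median scaling. When the 4 CRISPR-set libraries were fitted alone, 7 members, with PHGDH and SHMT2 added, and 7834 genes in the table were called. Without CBAP-reconstituted replicate 1 only MTHFD2 was called, and 2 members were called without CBAP-reconstituted replicate 2 or CBAP knockout replicate 2.

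By library values alone, 6 of the 9 enzymes did not overlap between the shRNA-set conditions, where 50.6% of all tested genes did not. All 6 were lower in the knockdown, against 33.2% of genes lower and 17.4% higher in this way. In the CRISPR set 8 of the 9 did not overlap, where 85.7% of genes did not. Of these, 5 were lower and 3 higher in knockout cells, against 42.7% and 43% of genes.

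**Figure D2:**
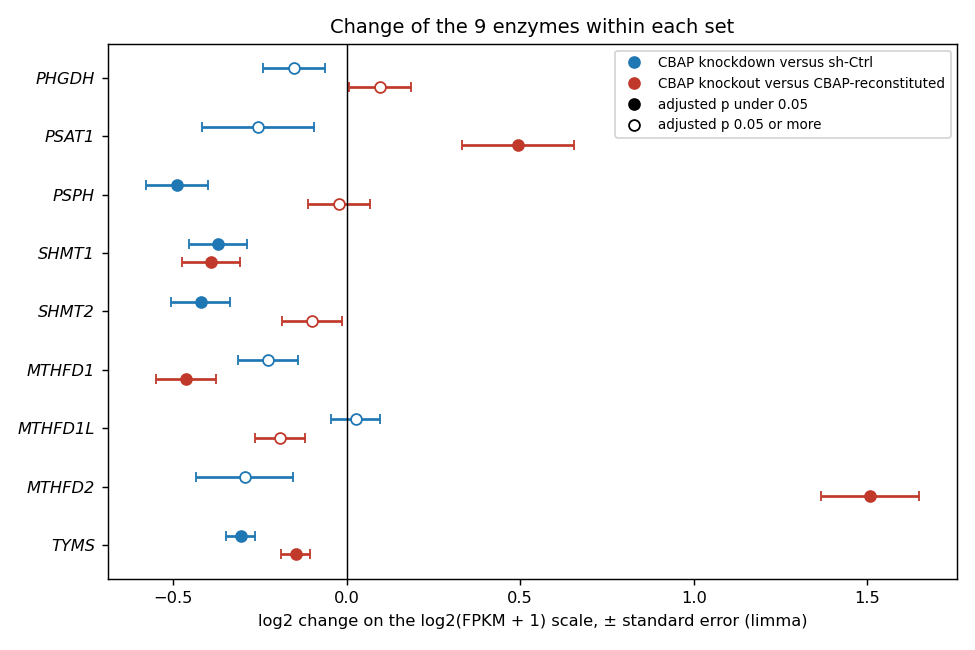
Log2 change of each enzyme (horizontal axis, log2(FPKM + 1) scale, mean and standard error from limma) in CBAP knockdown versus sh-Ctrl cells and in CBAP knockout versus CBAP-reconstituted cells, with filled points for an adjusted p under 0.05. MTHFD2 lies at -0.29 (shRNA set) and 1.51 (CRISPR set), and SHMT1 lies at -0.37 and -0.39. The point for TYMS in the CRISPR set, at -0.15, turns to 0.10 after quantile normalization.

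PHGDH, the dehydrogenase that opens serine synthesis, was among the least variable of the 9. The gene lies at chr1:120191034-120286841 on the plus strand. All gene positions are in GRCh37, from GENCODE release 44 lifted to that build. Its FPKM was 173 and 144 in sh-Ctrl, 146 and 138 in CBAP knockdown, 153 and 151 in CBAP-reconstituted and 161 and 163 in CBAP knockout libraries. The shRNA-set conditions overlapped, and in the CRISPR set both knockout libraries lay above both reconstituted ones. The log2 change was -0.15 (standard error 0.090) in the shRNA set with an adjusted p of 0.316 and 0.10 (standard error 0.090) in the CRISPR set with an adjusted p of 0.417 from limma. Of 16 alternatives, 2 called PHGDH higher in knockout cells. Quantile normalization gave 0.32 (adjusted p = 0.044 from limma), and the CRISPR set fitted alone gave 0.10 (adjusted p = 0.021).

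PSAT1, the aminotransferase of the next step (chr9:80912041-80945009, plus strand), was highest in knockout cells. Its FPKM was 193 and 135 in sh-Ctrl, 130 and 141 in CBAP knockdown, 182 and 186 in CBAP-reconstituted and 255 and 263 in CBAP knockout libraries. The knockout libraries stood above all 6 others, while the sh-Ctrl libraries overlapped those of the knockdown and of the reconstituted cells. Knockout over reconstituted gave a fold of 1.41, with a log2 change of 0.49 (standard error 0.160, adjusted p = 0.047 from limma). Of 16 alternative settings, 5 kept that call, and the adjusted p ranged up to 0.166. In the shRNA set the log2 change was -0.26 with an adjusted p of 0.339, and without sh-Ctrl replicate 1 the log2 change was 1.3e-05, or no difference between the means. The difference between the sets was -0.75 with an adjusted p of 0.0516.

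PSPH, the phosphatase that releases serine (chr7:56078744-56119297, minus strand), was lowest in CBAP knockdown cells. Its FPKM was 20.2 and 18.3 in sh-Ctrl, 12.4 and 14.5 in CBAP knockdown, 16.4 and 16.8 in CBAP-reconstituted and 16.1 and 16.7 in CBAP knockout libraries. The shRNA-set conditions did not overlap, and those of the CRISPR set did. Knockdown was 0.699 times sh-Ctrl, a log2 change of -0.49 (standard error 0.089, adjusted p = 0.027 from limma), against -0.02 (adjusted p = 0.872) in the CRISPR set. The change differed between the sets by -0.47 (standard error 0.126, adjusted p = 0.037), where 33.8% of all tested genes differed. That call was kept in 9 of 15 alternatives. The method of depletion, the vectors and the cloning differ between the sets and cannot be told apart in such a difference.

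SHMT1, the cytosolic hydroxymethyltransferase (chr17:18231174-18266877, minus strand), fell in both sets. Its FPKM was 28.2 and 27.6 in sh-Ctrl, 19.6 and 23.2 in CBAP knockdown, 36.1 and 37.5 in CBAP-reconstituted and 28.1 and 27.6 in CBAP knockout libraries. In each set the deficient libraries lay below the expressing ones, but the knockout values lay at the level of sh-Ctrl, so the classes overlapped over all 8 libraries. The log2 change was -0.37 (standard error 0.084, adjusted p = 0.045) in the shRNA set and -0.39 (standard error 0.084, adjusted p = 0.012) in the CRISPR set by limma. The difference between the sets was 0.02 with a standard error of 0.118. Of 16 alternatives, 7 kept the first call and 13 the second.

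SHMT2, the mitochondrial form (chr12:57623356-57628718, plus strand), was lowest in the knockdown. Its FPKM was 106 and 92.6 in sh-Ctrl, 69.8 and 78.3 in CBAP knockdown, 102 and 105 in CBAP-reconstituted and 95.8 and 96.7 in CBAP knockout libraries. Both knockdown libraries lay below all 6 others. Knockdown was 0.744 times sh-Ctrl, a log2 change of -0.42 with a standard error of 0.086 and an adjusted p of 0.034, a call that 7 of 16 alternatives kept. In the CRISPR set the log2 change was -0.10 (adjusted p = 0.378) and turned to 0.13 after quantile normalization. With that set fitted alone, the -0.10 was called (adjusted p = 0.029 from limma). The difference between the sets was -0.32 with an adjusted p of 0.093.

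MTHFD2, the mitochondrial methylenetetrahydrofolate dehydrogenase (chr2:74413299-74444692, plus strand), had the largest log2 change of the 9, in the CRISPR set. Its FPKM was 174 and 128 in sh-Ctrl, 119 and 124 in CBAP knockdown, 64.9 and 68.6 in CBAP-reconstituted and 189 and 194 in CBAP knockout libraries. The reconstituted libraries stood below all 6 others and the knockout libraries above all 6 others. Knockout over reconstituted gave a fold of 2.87, with a log2 change of 1.51 (standard error 0.140, adjusted p = 0.00063 from limma), and all 16 alternatives kept the call with log2 changes of 1.44 to 1.76. In the shRNA set the log2 change was -0.29 (standard error 0.140, adjusted p = 0.226), and the sh-Ctrl libraries differed from each other by 0.44 on the log2 scale. The change differed between the sets by -1.80 (standard error 0.198, adjusted p = 0.0023), a call kept in 15 of 15 alternatives. MTHFD2 shares 1324 exonic bases with SLC4A5, a bicarbonate transporter gene on the other strand, and the sources used here do not say whether counting used strand. SLC4A5 had a mean FPKM of 3.88 in sh-Ctrl, 0.313 in CBAP knockdown and 4.97 in CBAP knockout libraries, and FPKM values of 0.0803 and 0.120 in the CBAP-reconstituted ones. The annotation also holds 7 processed pseudogenes of MTHFD2, of which MTHFD2P1 is listed as transcribed. Pseudogenes of PSAT1, PSPH, SHMT1, MTHFD1 and TYMS are annotated too. How the authors' counting treated reads that fit both a gene and its pseudogene is not given in the sources used here.

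MTHFD1L, the mitochondrial formate-releasing enzyme (chr6:151186815-151423023, plus strand), was lowest in knockout cells. Its FPKM was 31.2 and 30.0 in sh-Ctrl, 29.9 and 32.5 in CBAP knockdown, 29.5 and 29.4 in CBAP-reconstituted and 27.0 and 24.4 in CBAP knockout libraries. The shRNA-set conditions overlapped, and the knockout libraries lay below all 6 others. The log2 change was 0.03 (standard error 0.071, adjusted p = 0.848) in the shRNA set and -0.19 (standard error 0.071, adjusted p = 0.069) in the CRISPR set by limma.

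MTHFD1, the cytosolic enzyme that takes up formate (chr14:64854749-64930175, plus strand), fell in knockout cells. Its FPKM was 58.3 and 60.1 in sh-Ctrl, 46.1 and 55.0 in CBAP knockdown, 55.8 and 54.5 in CBAP-reconstituted and 39.3 and 40.2 in CBAP knockout libraries. The knockout libraries lay below all 6 others. Knockout was 0.720 times reconstituted, with a log2 change of -0.46 (standard error 0.086, adjusted p = 0.0072 from limma), and 15 of 16 alternatives kept the call. The shRNA-set conditions did not overlap, and the log2 change there was -0.23 (standard error 0.086, adjusted p = 0.146).

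TYMS, thymidylate synthase (chr18:657653-673578, plus strand), was lower in both kinds of CBAP-deficient cells in the deposited values, although quantile normalization turned its direction in the CRISPR set. Its FPKM was 311 and 301 in sh-Ctrl, 245 and 250 in CBAP knockdown, 332 and 328 in CBAP-reconstituted and 297 and 299 in CBAP knockout libraries. The highest deficient library, at 299, lay below the lowest expressing one, at 301. TYMS was the only enzyme of the 9 whose classes did not overlap over all 8 libraries, where 14.9% of all tested genes had classes that did not overlap, 10.3% lower and 4.67% higher in the deficient class. Knockdown was 0.809 times sh-Ctrl, a log2 change of -0.31 with a standard error of 0.041 and an adjusted p of 0.013, and 13 of 16 alternatives kept that call. In the CRISPR set it was -0.15 (standard error 0.041, adjusted p = 0.030), kept in 8 of 16, and it turned to 0.10 (adjusted p = 0.136) after quantile normalization. The difference between the sets was -0.16 with an adjusted p of 0.088. TYMS shares 967 exonic bases with ENOSF1 on the other strand, whose log2 change was -0.20 (adjusted p = 0.359) in knockdown and 0.72 (adjusted p = 0.0069) in knockout cells. The summed FPKM of 5 proliferation markers (MKI67, PCNA, TOP2A, CCNB1 and MCM2) also differed between the conditions, with 655 and 625 in sh-Ctrl, 531 and 605 in CBAP knockdown, 718 and 724 in CBAP-reconstituted and 679 and 684 in CBAP knockout libraries. The part of proliferation in these results was not tested.

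Partners are named where the deposited table holds them. Of the other enzymes, MTHFD1 shares 178 exonic bases with ZBTB25, SHMT1 shares 197 with SMCR8 and SHMT2 shares 33 with NDUFA4L2, each on the other strand. MTHFD1 shares more, 1556 and 186 bases, with a pair of unnamed antisense lncRNAs and SHMT2 352 with another, which have no value in the table used here. In the CRISPR set the limma log2 change was 0.64 (adjusted p = 0.019) for ZBTB25, 0.10 (adjusted p = 0.272) for SMCR8 and 1.15 (adjusted p = 0.00054) for NDUFA4L2. In the shRNA set it was -0.20, -0.02 and 0.15 in the same order, and none was called. Whether reads of these genes entered the values of the enzymes was not tested. PHGDH, PSAT1, PSPH and MTHFD1L share no exonic base with another annotated gene.

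Over all 8 libraries, 0 of the 9 enzymes differed between the CBAP-deficient and the CBAP-expressing class, where 0.621% of all tested genes did and 0.411% were lower (limma without covariate). The 3 of the smallest limma p-values were MTHFD1, SHMT1 and TYMS, with log2 changes of -0.35, -0.38 and -0.23 and with 0.154, 0.215 and 0.225 as adjusted p. A model with a term for the set called these 3, at an adjusted p of 0.040, 0.022 and 0.048, and the calls in the whole table went from 71 to 1404. For each of these 3, in the deposited values, both deficient libraries lay below both expressing libraries within each set. That held for SHMT2 as well. With each set taken singly, 33.2% of all tested genes lay lower in this way in knockdown cells and 42.7% in knockout cells. The share that did so in both was not taken, so no excess among the enzymes is shown.

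The enzymes of the mitochondrial and cytosolic arms were compared by their ratio within a library. The SHMT2 to SHMT1 ratio was 3.77 and 3.35 in sh-Ctrl, 3.55 and 3.37 in CBAP knockdown, 2.83 and 2.78 in CBAP-reconstituted and 3.41 and 3.51 in CBAP knockout libraries. The reconstituted libraries thus stood apart below the other 6, and the mean log2 ratio of the deficient class was 0.12 above that of the expressing class (two-sided exact permutation p = 0.343, Benjamini-Hochberg adjusted over the 3 ratios 0.343). The MTHFD2 to MTHFD1 ratio was 2.99 and 2.13 in sh-Ctrl, 2.57 and 2.26 in CBAP knockdown, 1.16 and 1.26 in CBAP-reconstituted and 4.82 and 4.82 in CBAP knockout libraries. Its log2 difference was -0.07 between the shRNA-set conditions, 1.97 between those of the CRISPR set and 0.95 over both (two-sided exact permutation p = 0.114, adjusted 0.171). The MTHFD1L to MTHFD1 ratio was 0.535 and 0.499 in sh-Ctrl, 0.648 and 0.590 in CBAP knockdown, 0.528 and 0.540 in CBAP-reconstituted and 0.687 and 0.607 in CBAP knockout libraries. All 4 deficient libraries lay above all 4 expressing ones, by 0.25 (shRNA set) and 0.27 (CRISPR set) on the log2 scale. The exact permutation p was 0.0286, the smallest that 4 against 4 libraries can give, and 0.0857 after adjustment over the 3 ratios. That test exchanged libraries across the sets and took the libraries of a condition as independent. With labels exchanged only within each set, the smallest exact permutation p possible is 0.0556. Quantile normalization, tried after the data were seen, moved the SHMT2 to SHMT1 difference from 0.29 to 0.45 and the MTHFD1L to MTHFD1 difference from 0.27 to 0.18 in the CRISPR set.

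**Figure D3:**
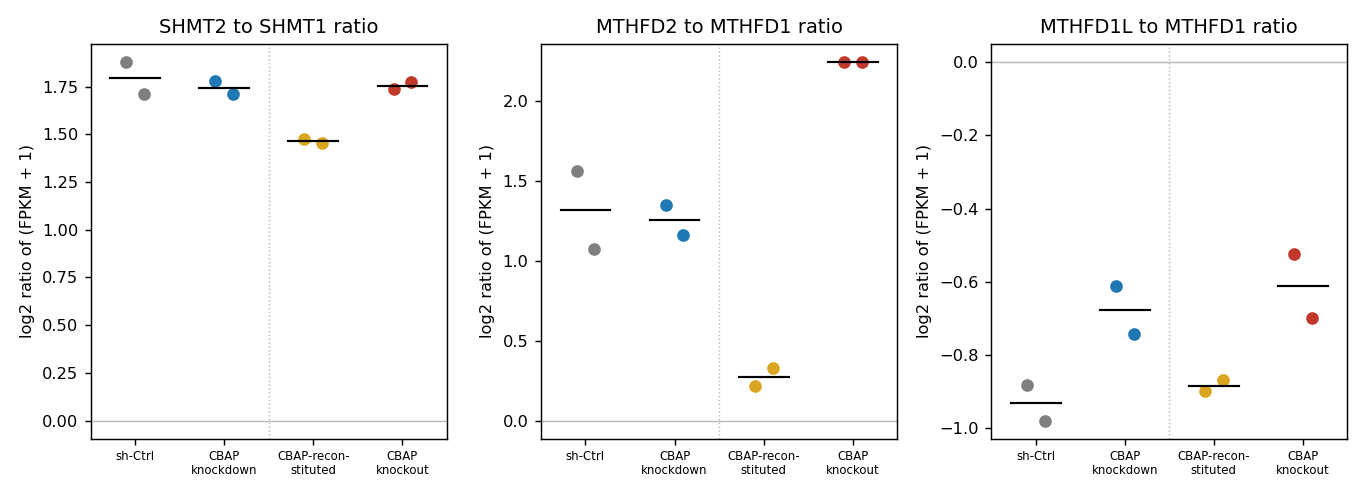
Log2 ratio of mitochondrial to cytosolic enzyme, from FPKM + 1 (vertical axis), for 3 pairs in the 4 conditions (horizontal axis), with 1 point per library and a line at the mean of 2. The MTHFD2 to MTHFD1 ratio is at 2.24 in both knockout libraries and at 0.21 and 0.33 in the reconstituted ones, and the MTHFD1L to MTHFD1 ratio is above -0.75 in each deficient library and below -0.86 in each expressing one.

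Adjoining pathways were taken from lists of 65 genes, of which 48 were in the table and 47 were tested. In the shRNA set 0 of the 47 rose and 5 fell, 10.6% against 12.3% of all genes. In the CRISPR set 5 rose and 18 fell, 48.9% against 49.9%. In either direction the shares were thus near those of the whole table, but the directions were less alike. Of the genes called in the shRNA set, 0% of those in the lists were higher, against 29.4% over the whole table. In the CRISPR set these were 21.7% and 48.0%. Over all 8 libraries 1 gene was called, DTYMK.

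Glycine and serine handling (10 tested) had 2 genes that fell in the knockdown, where 8.7% of all tested genes fell. GLDC, the decarboxylase of glycine cleavage, had a log2 change of -0.45 (adjusted p = 0.021) and SFXN1, the mitochondrial serine transporter, of -0.28 (adjusted p = 0.037). With the shRNA set fitted alone, neither was called, nor were DTYMK and DUT of the thymidylate list, which also fell in the knockdown. In knockout cells 2 fell, DLD and SFXN1, and 2 plasma membrane transporters rose, where 25.9% of all tested genes fell and 23.9% rose. SLC1A4, which carries neutral amino acids including serine, had a mean FPKM (SD, n = 2) of 10.6 ± 2.65 in sh-Ctrl, 10.9 ± 2.25 in CBAP knockdown, 6.84 ± 0.0772 in CBAP-reconstituted and 31.9 ± 0.325 in CBAP knockout libraries, with a log2 change of 2.07 (adjusted p = 0.00057) in the CRISPR set. SLC6A9, a glycine transporter, had 0.986 ± 0.371 in sh-Ctrl, 0.865 ± 0.274 in CBAP knockdown, 0.941 ± 0.173 in CBAP-reconstituted and 4.02 ± 0.0163 in CBAP knockout libraries, with a log2 change of 1.38 (adjusted p = 0.0017). GCSH was listed at 0 in 1 knockdown and 1 knockout library and was not called.

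Of the folate handling list, SLC25A32, the mitochondrial folate carrier, fell by 0.87 on the log2 scale in knockout cells (adjusted p = 0.0024). DHFRL1 rose there, with a log2 change of 0.87 (adjusted p = 0.0012). Of the methionine cycle (10 tested), none was called in the knockdown. In knockout cells AHCY, which clears S-adenosylhomocysteine, fell by 0.58 on the log2 scale (adjusted p = 0.00043), and MTR, methionine synthase, rose by 0.34 (adjusted p = 0.015), a call lost without any 1 of the 4 CRISPR-set libraries.

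Of the genes of purine synthesis, which takes formyl groups from the folate cycle, most were called in knockout cells and all of those were lower. None of its 10 tested genes was called in the knockdown, where the median log2 change was -0.13. In knockout cells 8 fell and none rose, with a median of -0.80, where 25.9% of all tested genes fell and their median was 0.00. PPAT (log2 change -0.22, adjusted p = 0.161) and ADSS (-0.15, adjusted p = 0.197) were not called. PFAS had a mean FPKM of 33.1 ± 5.39 in sh-Ctrl, 27.2 ± 1.18 in CBAP knockdown, 49.1 ± 1.59 in CBAP-reconstituted and 15.3 ± 0.649 in CBAP knockout libraries, a log2 change of -1.62 (adjusted p = 0.00025) in the CRISPR set. ADSL had 116 ± 3.36 in sh-Ctrl, 115 ± 7.62 in CBAP knockdown, 127 ± 2.49 in CBAP-reconstituted and 62.0 ± 0.909 in CBAP knockout libraries, a log2 change of -1.02 (adjusted p = 0.00014). Of the 10, 5 had a change that differed between the sets (ADSL, ATIC, GART, IMPDH2 and PFAS), against 33.8% of all tested genes. After quantile normalization 6 fell and after median scaling 10 fell in knockout cells.

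Thymidylate and deoxynucleotide supply (8 tested) had members that fell in both sets. DTYMK, which phosphorylates the product of TYMS, had a mean FPKM of 63.3 ± 3.23 in sh-Ctrl, 41.7 ± 2.6 in CBAP knockdown, 77.3 ± 0.998 in CBAP-reconstituted and 44.5 ± 2.65 in CBAP knockout libraries. Its log2 change was -0.59 (adjusted p = 0.011) in the shRNA set, -0.78 (adjusted p = 0.00060) in the CRISPR set and -0.69 (adjusted p = 0.041) over all 8 libraries by limma, and 8 of 16 alternatives kept the last call. DUT, which makes the substrate of TYMS, fell by 0.28 on the log2 scale in the knockdown (adjusted p = 0.040), and in knockout cells its -0.19 (adjusted p = 0.043) turned to 0.06 after quantile normalization. TK1, the salvage kinase, fell by 0.68 in knockout cells (adjusted p = 0.0013), and DCTD and RRM1 fell there too. The list thus had 5 genes lower and 0 higher in knockout cells, where 25.9% of all tested genes fell and 23.9% rose. After quantile normalization 2 were lower and 1 higher.

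**Figure D4:**
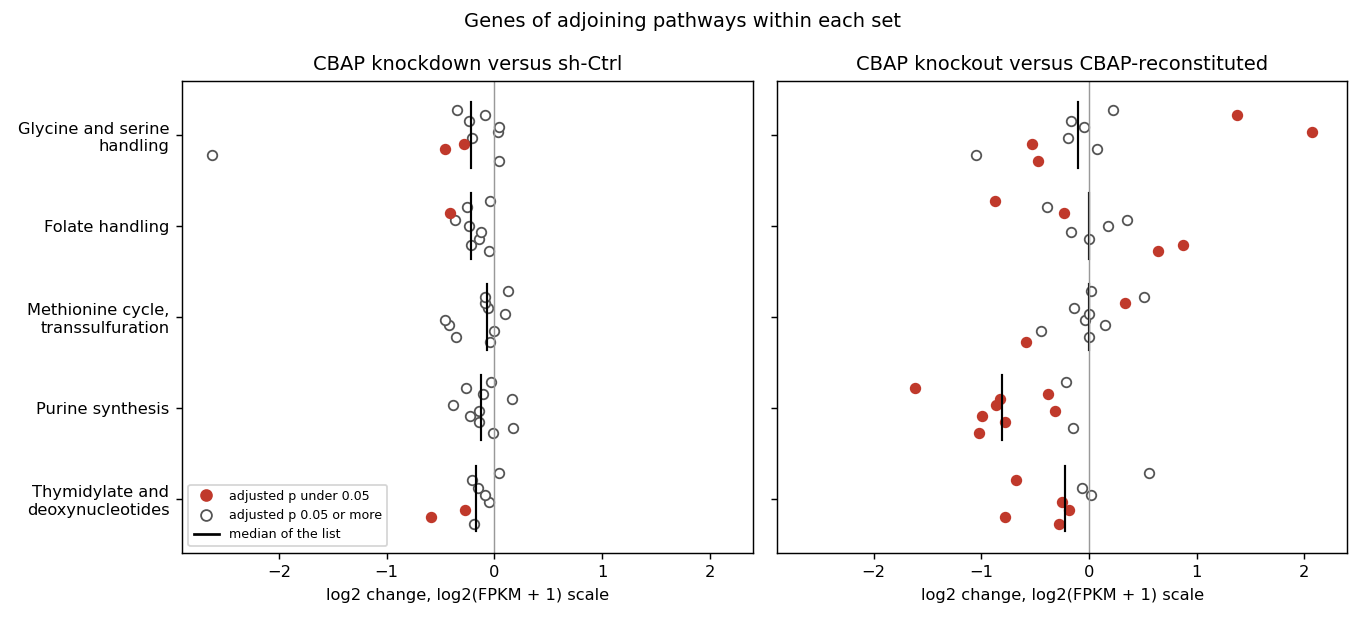
Log2 change (horizontal axis, log2(FPKM + 1) scale) of each tested gene in 5 lists of adjoining pathways (vertical axis), for the shRNA set on the left and the CRISPR set on the right, with filled points for an adjusted p under 0.05 by limma and a bar at the median of each list. Purine synthesis has its median at -0.13 on the left and at -0.80 on the right, and DUT, a filled point at -0.19 on the right, changes sign after quantile normalization.

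Of 4 regulators known for these genes, ATF4, which drives amino acid synthesis genes under stress, had a mean FPKM of 382 ± 31.7 in sh-Ctrl, 386 ± 7.55 in CBAP knockdown, 359 ± 3.77 in CBAP-reconstituted and 468 ± 2.96 in CBAP knockout libraries. It rose by 0.38 on the log2 scale in knockout cells (adjusted p = 0.0050). MYC had 156 ± 12.0 in sh-Ctrl, 131 ± 8.6 in CBAP knockdown, 157 ± 0.515 in CBAP-reconstituted and 131 ± 1.37 in CBAP knockout libraries, with a log2 change of -0.25 in each set (adjusted p = 0.080 and 0.030), the second call being lost after quantile normalization. NFE2L2 was not called in either set, with log2 changes of 0.15 and 0.29. E2F1 had an FPKM of 28.8 in both CBAP-reconstituted libraries and was listed at 0 in the other 6. It is given only as listed, with no fold.

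The genes whose profile over the 8 libraries was most like that of an enzyme were searched for among all tested genes. The measure was the root mean square distance between log2(FPKM + 1) values of the single libraries, centred per gene. The spread between the 2 libraries of a condition therefore enters these distances. For TYMS they were ESPL1, SMU1 and TUBGCP4, at distances of 0.027, 0.035 and 0.036. For SHMT2 they were TPCN2, IFT27 and COMMD2, at 0.044 to 0.046, and for PHGDH they were MMP15, ZNF709 and C20orf194, at 0.044 to 0.046. For MTHFD2 they were LOC100506688, LGALS9 and BHLHE23, at 0.089, 0.124 and 0.144. The distances are not scaled for how much an enzyme varies. The root mean square of its own centred values was 0.569 for MTHFD2, 0.198 for SHMT2, 0.152 for TYMS and 0.099 for PHGDH. The distances therefore do not rank the enzymes by how alike their neighbours are. ZNF709 and C20orf194 were low in level, with condition means of 1.21 to 1.61 FPKM. Among the 9 enzymes the closest pair was SHMT2 and TYMS, at 0.071.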

How the data were processed

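RNA of the 8 libraries was sequenced as paired ends, and the authors used TopHat 2 for alignment to hg19 and cuffdiff for FPKM. The deposited FPKM table has 1 column per library. The version of Cufflinks, the annotation, the strand setting and the scaling of the libraries are not given in the sources used here, and no counts or depths can be had from FPKM.

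Conditions came from the labels. Values were taken as log2(FPKM + 1), genes with a mean FPKM under 1 over the 8 libraries were left out, and limma 3.58.1 (R 4.3.3, empirical Bayes with trend, Benjamini-Hochberg adjustment over 11427 genes, threshold 0.05) was run on the whole table. A model of condition means served for the contrast in each set and for the contrast between the sets, and a second model compared 4 deficient with 4 expressing libraries. Adjusted p-values in the text come from limma. Ratios used exact permutation tests. The fits were tested on simulated data first. Members and lists were chosen with earlier results of these data known. All 9 enzymes are named, with the 2 list genes of the largest called change per list and set. DLD, GCSH and the other list genes named without values stand for counts, and PPAT and ADSS were named after their values were seen. Some list genes are not reported here. Tables were handled with pandas 2.3.3 and permutation tests with numpy 2.4.6 under Python 3.11.15. Alternatives covered the pseudocount (0.1), the filter, quantile and median scaling, the trend, listed 0s, a replicate block, the set alone, the set as a covariate and each library left out.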

Additional observations from a re-analysis of the deposited data

Results flagged for a closer look

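The results below were picked out because the change in the shRNA set differed from that in the CRISPR set by the interaction contrast of limma, which 33.8% of all tested genes passed. Each value is the log2 change in the shRNA set minus that in the CRISPR set. Among the 9 enzymes these were MTHFD2, at -1.80 (adjusted p = 0.0023), and PSPH, at -0.47 (adjusted p = 0.037). MTHFD2 rose in knockout cells and had -0.29 in the shRNA set, while PSPH fell in knockdown cells and had -0.02 in the CRISPR set.

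Among transporters and glycine genes, the differences were -2.03 for SLC1A4, -1.46 for SLC6A9 and -0.53 for GLDC. In folate handling they were -1.09 for DHFRL1 and 0.83 for SLC25A32, and in the methionine cycle 0.54 for AHCY and -0.42 for MTR. In purine synthesis they were 1.35 for PFAS and 1.01 for ADSL, and TK1 had 0.48. The regulator ATF4 had -0.37. The fitted 4.90 of E2F1 rests on its listed 0s in 6 libraries and on the pseudocount, and is no measure of a fold. No library of a 4-library class passed the cut of Dixon's test for any of the 9 enzymes. Each class joins 2 conditions of 2 libraries, and differences between the conditions widen the range that the test divides by. It could thus hardly set a library apart, and no conclusion is drawn from it.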

How the results depend on the processing

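Precision rested on 2 libraries per condition. Members called numbered 4 in the shRNA set, 5 in the CRISPR set, 2 for the difference and 0 over all libraries. A replicate block gave 1, 3, 1 and 0, but same-numbered libraries did not deviate together (r from -0.063 to 0.146 over 6 pairs of conditions), so the numbers pair nothing. The shRNA set fitted alone gave 0. The CRISPR set fitted alone gave 7, with 7834 genes called over the whole table. No trend gave 3 in the CRISPR set. For the difference, quantile normalization gave 5 and median scaling 4. The set as a covariate gave 3 over all libraries. With 1 library left out the counts ran from 0 to 5 in the shRNA set, 1 to 5 in the CRISPR set and 1 to 5 for the difference, and stayed at 0 over all libraries. Where 1 library remained, it was assumed to vary like the other conditions. The causes were not tested. The 3 ratios kept their direction and their side of the threshold under every alternative run, quantile and median scaling included, which were added after seeing the data. No ratio could pass the threshold alone, since the smallest exact permutation p of 0.0286 adjusts to 0.0857. Its side of the threshold is therefore no measure of stability. Quantile normalization moved the SHMT2 to SHMT1 difference over both sets from 0.12 to 0.21.

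Quantile normalization reversed SHMT2 (0.13), TYMS (0.097) and DUT (0.060) in the CRISPR set and PHGDH (0.12) over all libraries. Leaving out 1 library gave ranges across 0 for PSAT1 (-0.51 to 1.3e-05) and MTHFD1L (-0.033 to 0.085) in the shRNA set, PSPH (-0.046 to 0.0044) in the CRISPR set, SHMT1 for the difference (-0.095 to 0.14), and PHGDH (-0.063 to 0.024) and PSAT1 (-0.045 to 0.29) over all libraries.

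Over the whole table the calls went from 1408 in the shRNA set to 776 with the replicate block, 86 with that set alone and 303 to 2371 with 1 library left out. In the CRISPR set, 5697 became 3327 to 6863 with 1 library left out, and for the difference 3861 became 1813 to 5151. Over all libraries, 71 became 185 with no filter, 173 with quantile normalization, 172 with median scaling, 11 with the replicate block, 1404 with the set as a covariate and 8 to 55 with 1 library left out.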
